A study of Mus musculus with 6 samples.

Results

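Genes of the two-cell-like state were followed in mouse embryonic stem cells (mESCs) knocked out for Setd2 and in wild type mESCs. The 10 genes were Zscan4c, Zscan4d, Zscan4f, Tcstv1, Tcstv3, Zfp352, Pramel6, Pramel7, Arg2 and Calcoco2. Every probe set that the platform annotation assigns to one of them, alone or with other genes, was taken, which gave 12 of the 45037 probe sets of the deposited table. Of these, 11 named 1 gene each. The other named 6 genes of the Zscan4 family, among them Zscan4c, Zscan4d and Zscan4f.

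Total RNA of 3 Setd2 knockout and 3 wild type samples, which the labels call biological repeats, was hybridised to Affymetrix mouse genome arrays, and all cells were of the mixed strain 129SV/C57BL/6 with no treatment. Both genotypes were grown on feeder cells, which were then reduced by settling on gelatin and 1 passage without feeders. The labels do not say which part of Setd2 was deleted or how many clones stand behind a genotype, so p-values measure the spread between these arrays. The fits also draw the spread of each probe set toward that of others of like signal. Setd2 encodes the enzyme that trimethylates lysine 36 of histone H3 along transcribed genes, and the study looked for deregulated genes needed for primitive endoderm differentiation. Values are log2 MAS5 signals, where MAS5 is the Affymetrix algorithm that reduces a probe set to 1 number, and a difference of 1 is a doubling of signal.

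In culture, a small and changing share of mESCs passes for a short time into a state whose transcripts resemble those of the embryo at its first cleavage. The Zscan4 genes, which encode SCAN domain zinc finger proteins linked to telomere lengthening and genome stability, are the best known markers of that state. The Tcstv genes, Zfp352 and several multicopy gene families are switched on in the same cells, many of them downstream of the homeobox factor Dux. In bulk RNA, a larger share of cells in the state and more RNA per such cell cannot be told apart.

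The 3 Zscan4 members are near-identical copies on chromosome 7, and the array reads them through 1 shared probe set. Their promoters are shown because they illustrate how alike these copies are. RefSeq promoter windows (GRCm38.p6) were cut to 180 bases around TATAAA, the core of a TATA box, which is given in capitals. The stretches are Zscan4c at chr7:11005541-11005720 on the plus strand, Zscan4d at chr7:11166184-11166363 on the minus strand and Zscan4f at chr7:11397734-11397913 on the plus strand.
Zscan4c: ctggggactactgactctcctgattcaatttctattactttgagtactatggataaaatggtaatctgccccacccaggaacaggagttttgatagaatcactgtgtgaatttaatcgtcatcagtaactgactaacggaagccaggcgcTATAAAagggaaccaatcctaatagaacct
Zscan4d: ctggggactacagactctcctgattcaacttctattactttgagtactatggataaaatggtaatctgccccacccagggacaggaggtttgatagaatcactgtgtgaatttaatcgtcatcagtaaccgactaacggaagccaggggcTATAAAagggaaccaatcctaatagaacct
Zscan4f: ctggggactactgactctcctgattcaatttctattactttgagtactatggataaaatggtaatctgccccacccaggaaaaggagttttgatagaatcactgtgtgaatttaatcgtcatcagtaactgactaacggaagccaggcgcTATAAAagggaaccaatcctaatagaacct
Zscan4c and Zscan4f differed at 1 of 180 bases, Zscan4c and Zscan4d at 6, and Zscan4d and Zscan4f at 7. TATAAA began 54, 65 and 31 bases before the annotated start of Zscan4c, Zscan4d and Zscan4f. Of the 10 genes, 6 had a promoter window in the table, and TATAAA was found on either strand in the windows of 3, the Zscan4 copies, against 13.62% of all 32851 windows of 300 bases. Being near-identical copies, these 3 are not separate observations, so no enrichment can be read from them.

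Most of the 12 probe sets were dim. Only 5, of Zscan4, Zfp352, Pramel7, Arg2 and Calcoco2, reached the mean log2 signal of 5.27 (the 40th percentile over all probe sets) that was required for testing among 27022 probe sets. The other 7 lay below it: both Tcstv probe sets, both Pramel6 probe sets and the second probe sets of Zfp352, Pramel7 and Arg2. For these dim probe sets the fit over all 45037 probe sets is given, and the size of a fold rests on signals near the lower end of the scale. Of the 5 tested, Zfp352 and Pramel7 averaged 4.92 and 5.22 in wild type cells, below the filter value, and passed it through their knockout values.

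The Setd2 probe set checked the labels and read 9.37, 9.50 and 9.60 in knockout cells, against 10.31, 10.30 and 10.31 in wild type cells (limma adjusted p = 0.0272, and 0.000744 with the replicate number as a block). That unblocked call did not survive leaving out any 1 array other than knockout array 1 (adjusted p = 0.0690 to 0.212), nor a fit with no trend (0.0916). Its size over these single omissions was -0.87 to -0.76. Beside genotype, the replicate number also set arrays apart, with number 1 away from numbers 2 and 3 in both genotypes. Each difference was therefore also fitted with the replicate number as a block, which compares arrays within a number. A blocked SE is moderated by limma toward that of probe sets of like signal. It is therefore not the spread of the 3 within-number differences alone. The block was fitted only with this intensity trend. The genotypes differed outside these genes too: Eif2s3y on the Y chromosome averaged 11.30 in knockout and 4.92 in wild type cells, and the 1242 tested probe sets of chromosome 8 had a median difference of -0.34, against 0.02 on the other chromosomes. None of the 10 genes lies on either chromosome, but the effect of Setd2 and a difference between the cell lines cannot be told apart.

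Zscan4 signal was higher in Setd2 knockout cells on every array. The Zscan4 probe set (1457033_at) read 9.48, 10.06 and 10.64 on knockout arrays 1, 2 and 3, against 7.14, 9.16 and 9.28 on wild type arrays 1, 2 and 3. The groups did not overlap, and wild type array 1 stood well below the other 5. The difference was 1.53 ± 0.55 (SE) on the log2 scale, a 2.90-fold higher signal with a 95% interval of 1.21-fold to 6.93-fold. Without the block it did not pass limma's threshold (unadjusted p = 0.0225, adjusted p = 0.322). With the replicate block it rose, at the same size with an SE of 0.21 (adjusted p = 0.00191). Within numbers 1, 2 and 3 the knockout array was higher by 2.34, 0.90 and 1.36. The blocked SE also draws on other probe sets of like signal, not on these 3 differences alone. Wild type array 1 carried much of the mean: without it the difference was 0.84, and without both arrays numbered 1 it was 1.13 (limma adjusted p = 0.00358).

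**Figure D1:**
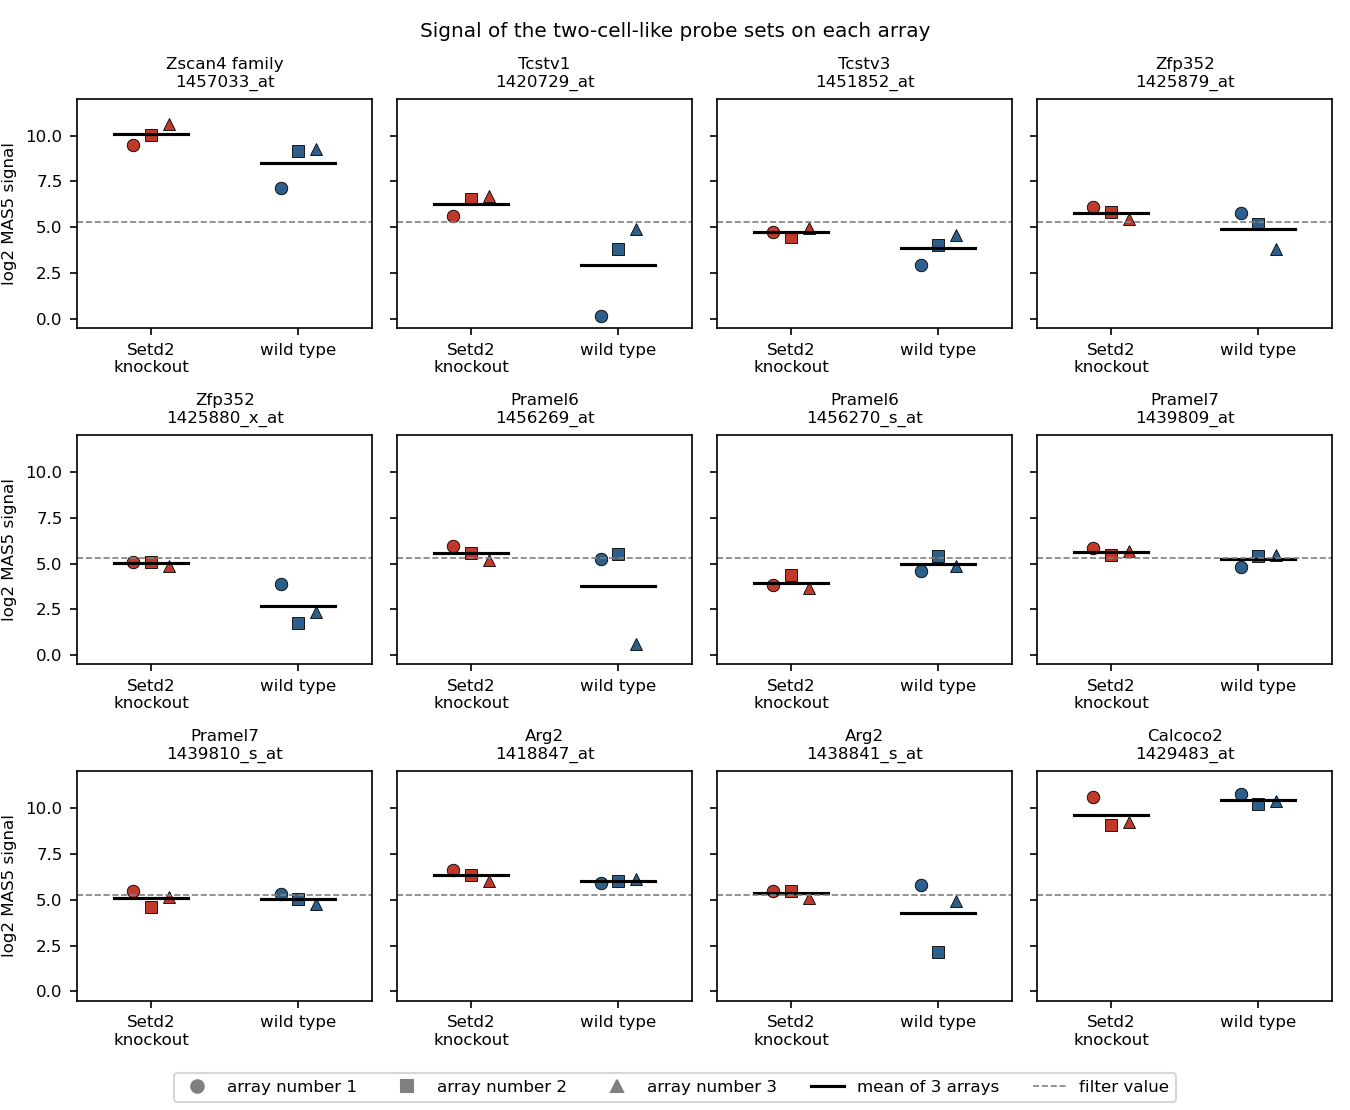
Log2 MAS5 signal (vertical axis) of the 12 probe sets on the 3 Setd2 knockout arrays (red, left) and the 3 wild type arrays (blue, right), with symbols for the array number, black bars for the mean of 3 arrays and a dashed line at the filter value of 5.27. The knockout arrays lie above all wild type arrays for Zscan4, Tcstv1 and the second Zfp352 probe set, and below them for the second Pramel6 probe set.

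Tcstv1 and Tcstv3 lie on chromosome 13 and are known as transcripts of the cleaving embryo that come on together with Zscan4. Tcstv1 (1420729_at) read 5.60, 6.53 and 6.73 on knockout arrays, against 0.17, 3.83 and 4.90 on wild type arrays. All knockout arrays lay above all wild type arrays, by 5.43, 2.70 and 1.83 within numbers 1, 2 and 3. The mean difference was 3.32 ± 1.09 (SE), a 9.99-fold higher signal with an interval of 1.78-fold to 56.2-fold. In the fit over all probe sets it missed limma's threshold (unadjusted p = 0.0148, adjusted p = 0.364) and rose with the replicate block (adjusted p = 0.0437). Wild type array 1, at 0.17, is a signal near 1, so the fold depends on that reading: the difference was 1.92 without it.

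Tcstv3 (1451852_at) read 4.75, 4.46 and 4.98 on knockout arrays, against 2.96, 4.03 and 4.59 on wild type arrays. The groups overlapped, since knockout array 2 lay below wild type array 3, although each knockout array was above the wild type array of its own number. The difference of 0.87 (95% interval -0.46 to 2.21) did not pass limma's threshold, with the replicate block or without it (adjusted p = 0.585 and 0.723). It was 0.42 without wild type array 1.

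Zfp352 is an intronless zinc finger gene on chromosome 4 that is transcribed in the cleaving embryo. Its tested probe set (1425879_at) read 6.09, 5.84 and 5.47 in knockout cells, against 5.76, 5.19 and 3.80 in wild type cells. These groups overlapped, and the difference of 0.89 (95% interval -0.30 to 2.07) missed limma's threshold in both fits (adjusted p = 0.581, and 0.245 with the block). Wild type array 3 set much of it, and without that array it was 0.33. The dim probe set (1425880_x_at) read 5.06, 5.11 and 4.87 in knockout cells, against 3.88, 1.75 and 2.36 in wild type cells, with no overlap. Its suffix marks probes that may also bind other transcripts. The difference was 2.35 ± 0.68 (SE; unadjusted p = 0.00785), and after adjustment over all probe sets it missed limma's threshold without and with the block (0.288 and 0.146). With a pseudocount of 50 added to the linear signal, this difference shrank to 0.52.

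Pramel6 and Pramel7 encode leucine-rich repeat proteins of the Prame family that are made in the inner cell mass and in naive stem cells, where Pramel7 is known to promote DNA demethylation by way of Uhrf1 turnover. Both lie on chromosome 2. Pramel7 (1439809_at) read 5.82, 5.45 and 5.66 on knockout arrays, against 4.81, 5.39 and 5.45 on wild type arrays. Knockout array 2 fell just below wild type array 3, and the difference of 0.42 (95% interval -0.34 to 1.18) missed limma's threshold (adjusted p = 0.705). It was 0.22 without wild type array 1. Its dim probe set (1439810_s_at) differed by 0.049, with an interval of -0.94 to 1.04 and with overlapping groups. It turned to -0.047 under quantile normalization.

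The Pramel6 probe sets went opposite ways, and neither passed limma's threshold. The first (1456269_at) read 5.98, 5.55 and 5.18 in knockout cells, against 5.22, 5.52 and 0.64 in wild type cells. A single reading on wild type array 3 set its difference of 1.78 (95% interval -0.88 to 4.44), which was 0.20 without that array. The second (1456270_s_at) read 3.84, 4.37 and 3.66 in knockout cells, against 4.58, 5.43 and 4.85 in wild type cells. It averaged 3.96 in knockout and 4.95 in wild type cells with no overlap (interval of the difference -2.16 to 0.17; limma adjusted p = 0.617, and 0.472 with the block).

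Arg2 encodes the mitochondrial arginase, which splits arginine into ornithine and urea, and lies on chromosome 12. Its tested probe set (1418847_at) read 6.63, 6.33 and 6.03 on knockout arrays, against 5.93, 6.02 and 6.16 on wild type arrays. The groups overlapped, and the difference of 0.30 (95% interval -0.30 to 0.89) missed limma's threshold (adjusted p = 0.742). Without knockout array 1 it was 0.14, and without both arrays numbered 1 it was 0.092. The dim probe set (1438841_s_at) read 5.50, 5.47 and 5.09 in knockout cells, against 5.78, 2.16 and 4.95 in wild type cells. Its difference of 1.05 rested on wild type array 2, and was -0.015 without it and 1.79 without wild type array 1.

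Calcoco2, on chromosome 11, ran against the other bright member. The human gene, also called NDP52, encodes a receptor that brings damaged cargo and bacteria to autophagosomes. Its probe set (1429483_at) read 10.60, 9.06 and 9.23 on knockout arrays 1, 2 and 3, against 10.78, 10.21 and 10.39 on wild type arrays 1, 2 and 3. Knockout array 1 lay among the wild type arrays, while knockout arrays 2 and 3 lay below all of them. The difference was -0.83 ± 0.37 (SE), a signal 1.78-fold lower (limma adjusted p = 0.443; unadjusted p = 0.0554). With the replicate block it fell, with an SE of 0.17 (adjusted p = 0.0126). Within numbers 1, 2 and 3 the differences were -0.19, -1.15 and -1.16. Knockout array 1 decided the call without the block: leaving it out gave -1.32 (adjusted p = 0.0162), leaving out knockout array 2 gave -0.55 (0.741), and leaving out both arrays numbered 1 gave -1.16 (0.000546).

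Counted together, 10 of the 12 probe sets had a positive difference and 2 a negative one, with a median of 0.88. Over all 45037 probe sets 53.0% were positive and the median was 0.03. Without the block 0 of the 5 tested probe sets passed limma's threshold, against 0.648% of all tested probe sets, and 1 of 5 had an unadjusted p under 0.05, against 11.7%. With the replicate block 2 of 5 passed (7.88% of all tested probe sets did): 1 rose (Zscan4; 3.49% of all tested probe sets rose) and 1 fell (Calcoco2; 4.39% fell). Among the 7 dim probe sets, 0 passed in the fit over all probe sets (0.355% did) and 2 had an unadjusted p under 0.05 (9.29% did), while 1, Tcstv1, rose with the block, where 3.55% of all probe sets passed and 1.54% rose. The knockout arrays lay wholly above the wild type arrays at 3 of the 12 probe sets (8.33% of all probe sets) and wholly below at 1 (7.05%). The exact permutation test over 3 against 3 arrays gave its smallest possible two-sided p of 0.1 at each of these 4.

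**Figure D2:**
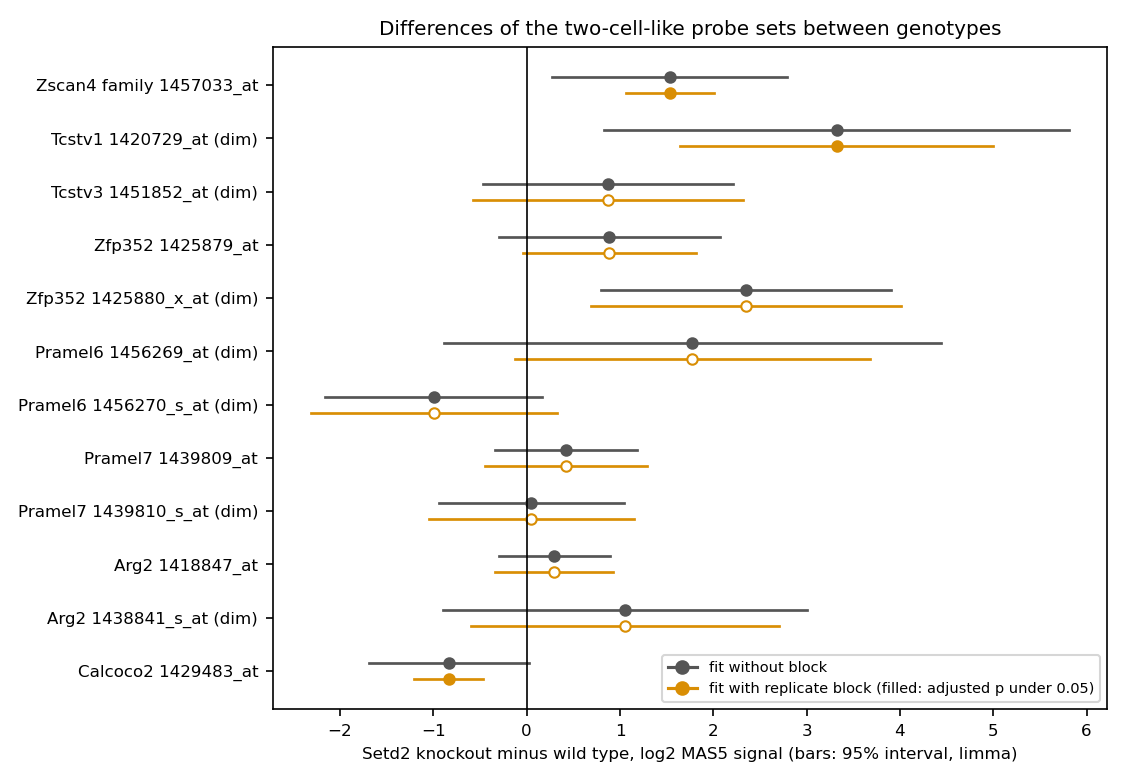
Setd2 knockout minus wild type difference in log2 MAS5 signal (horizontal axis) of the 12 probe sets, as points with 95% limma intervals from the fit without a block (grey) and with the replicate number as a block (orange, filled where the adjusted p is under 0.05). The Zscan4, Tcstv1 and Calcoco2 points are filled, and the block narrows the Zscan4 interval to 1.06 to 2.01.

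Across the 6 arrays, members followed Zscan4 to very different degrees. The highest Pearson r were those of Tcstv1 and Tcstv3 (0.98 and 0.93). The probe sets of 1 gene differed: r was 0.85 for the tested and -0.34 for the dim Pramel7 probe set, 0.36 and -0.093 for Arg2, and -0.035 and 0.32 for Zfp352. The Pramel6 probe sets had an r of 0.031 and -0.42, and Calcoco2 had the lowest (-0.78). These correlations describe 6 arrays that share genotype and number structure. Wild type array 1 was the lowest of the 6 for Zscan4 (7.14), Tcstv1 (0.17), Tcstv3 (2.96) and the tested Pramel7 probe set (4.81). Their r therefore depend in part on that array, and r without it was not computed. Of the other 27021 tested probe sets 5.32% had an r above 0.8 with Zscan4, and 1.64% had one above 0.9. Both Tcstv probe sets are dim and lie outside that tested set. The 5 genes with the highest r were Fank1 (0.997), Glrx5 (0.994), Plod2 (0.992), Manba (0.992) and Majin (0.991). Each stands at its probe set with the highest r among the tested ones that name 1 gene. Any other probe sets of these genes are not given. Fank1 read 7.25, 7.47 and 7.60 in knockout cells, against 6.32, 7.07 and 7.09 in wild type cells. With the replicate block Plod2, a collagen lysyl hydroxylase gene, and Manba, the lysosomal beta-mannosidase gene, rose by 0.63 and 0.46 (limma adjusted p = 0.0142 and 0.00710). Without the block they stood at 0.379 and 0.324. All 5 were chosen for following Zscan4 over these same arrays, so higher knockout signals follow from that choice. Their p-values give no separate support.

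Other transcripts of the two-cell-like state were read through a list. It held 56 gene names, to which 21 further probe sets were assigned, and 9 of these passed the filter, while 12 were too dim to be tested. Without the block 0 of the 9 passed limma's threshold, against 0.648% of all tested probe sets. With the block 6 rose and 0 fell, against 3.49% and 4.39% of all tested probe sets. The median difference of the 9 was 1.03, against 0.01 over all tested probe sets, and 7 of the 9 were positive, against 51.4% of all tested probe sets. The knockout arrays lay wholly above the wild type arrays at 3 of the 9 and wholly below at 0, against 9.16% and 8.99% of the tested probe sets. The probe set shared by Gm2022, Gm8300 and Gm5662 and that of Sp110 averaged 5.02 and 4.66 in wild type cells, below the filter value of 5.27. They passed the filter through their knockout values and are among the 6 that rose and the 3 wholly above. These counts and the median are therefore not independent of the filter. Among the 12 dim probe sets, that of AF067063 (1425160_at) lay wholly below, with a difference of -0.74. The Dux probe set 1430931_at and that of Ubtfl1 (1439670_at) lay wholly above, with differences of 0.64 and 1.02. Over all probe sets 8.33% lay wholly above and 7.05% wholly below.

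The brightest of the 9 named Gm4340 and 6 other genes of its family (1443961_at), a multicopy group known from Zscan4-positive cells. It read 9.14, 10.22 and 10.75 in knockout cells, against 7.27, 9.37 and 9.50 in wild type cells. The groups overlapped only through knockout array 1, and within numbers 1, 2 and 3 the knockout array was higher by 1.87, 0.85 and 1.25 (limma adjusted p = 0.454, and 0.00109 with the block). The difference of 1.32 was 0.60 without wild type array 1. Next came the probe set that names Gm4027, BB287469 and the translation initiation factor gene Eif1a (1427479_at), so Eif1a itself and its two-cell-like relatives are read together. It read 8.25, 8.90 and 9.27 in knockout cells, against 6.998, 8.25 and 8.07 in wild type cells, a difference of 1.03 (adjusted p = 0.321, and 0.00293 with the block), which was 0.65 without wild type array 1.

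The other 4 that rose with the block are named after their values were seen. The probe set shared by Gm2022, Gm8300 and Gm5662 (1444529_at) read 5.99, 7.03 and 7.12 in knockout cells, against 4.58, 5.38 and 5.11 in wild type cells. It showed no overlap (difference 1.69; limma adjusted p = 0.120, and 0.00890 with the block). Sp110 (1456493_at), a nuclear body gene, read 6.30, 6.20 and 6.20 in knockout cells, against 4.31, 5.11 and 4.55 in wild type cells (difference 1.58; adjusted p = 0.0969, and 0.0312 with the block), while its 2 dim probe sets differed by -0.07 and -0.70. AF067061 (1425220_x_at) differed by 2.24 (adjusted p = 0.540, and 0.0373 with the block), with wild type array 1 at 2.34 and the other 5 arrays between 6.99 and 8.42. Without that array its difference was 0.59, and within numbers 1, 2 and 3 it was 4.65, 0.89 and 1.19. The suffix of this probe set marks probes that may also bind other transcripts. The deubiquitinase gene Usp17la differed by 0.79 (adjusted p = 0.412, and 0.0396 with the block), and by 0.42 without wild type array 1. Without both arrays numbered 1, 4 of the 6 passed, and Sp110 and Usp17la did not (adjusted p = 0.0817 and 0.107). In that fit 2025 of all tested probe sets passed, against 175 in the main fit. The 6 had been picked by the blocked fit on arrays that include these, so this was no separate test. Of the 3 that did not pass, Pramel13, Pramel18 and Zscan5b differed by 0.28, -0.05 and -0.45, and their r with Zscan4 was -0.44, 0.63 and -0.71. Dux itself, listed as Duxf3, was too dim to be tested: 4.87 on average in knockout and 4.23 in wild type cells (1430931_at). Another dim probe set, shared with Gm9919 and Gm4981 (1453700_s_at), averaged 4.88 and 4.42, with overlapping groups. Its differences within numbers 1, 2 and 3 were 2.91, -0.12 and -1.41.

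**Figure D3:**
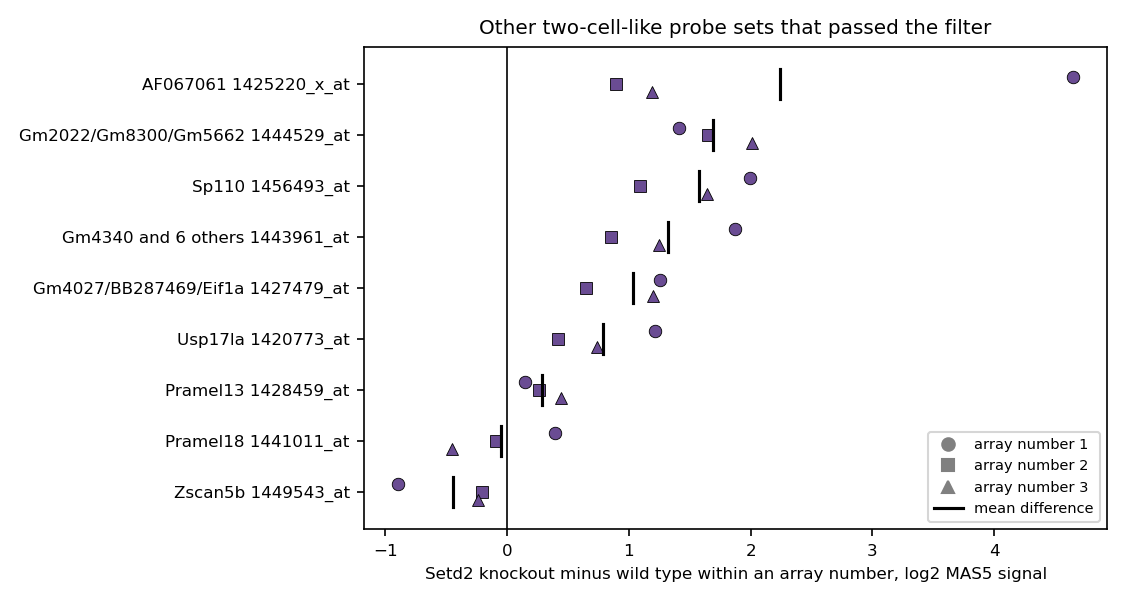
Setd2 knockout minus wild type difference in log2 MAS5 signal (horizontal axis) within each array number for the 9 tested probe sets of other two-cell-like genes, with symbols for the array number and a black bar at the mean difference. The upper 7 probe sets are positive within every number, and AF067061 reaches 4.65 within number 1 against 0.89 and 1.19 within numbers 2 and 3.

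Genes known to hold the two-cell-like state back include chromatin assembly factors, heterochromatin enzymes, DNA methyltransferases and a variant Polycomb complex. Of 102 tested probe sets of such genes, 0 rose and 1 fell without the block (0.274% and 0.374% of all tested probe sets), and 4 rose and 6 fell with it, beside 3.49% and 4.39% of all tested probe sets, so the blocked counts lie near the background. The median was -0.01. The 1 that fell was Hdac1, a class I histone deacetylase, which read 12.45, 12.66 and 12.64 in knockout cells, against 13.46, 13.14 and 13.23 in wild type cells. It fell by 0.70 on the log2 scale (limma adjusted p = 0.0304), a call that was lost without each array but knockout array 1 (0.0608 to 0.184) and without the intensity trend (0.170). The repressors Trim28 and Kdm1a, named after their values were seen, differed by -0.04 and -0.03 at their brightest probe sets.

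Among those past the threshold only with the block, again named after their values were seen, the de novo DNA methyltransferase genes stood on opposite sides. Dnmt3b rose by 0.40 at its brightest probe set (1449052_a_at) and Dnmt3a fell by 0.47 on the log2 scale at its own (1423066_at), with limma adjusted p of 0.00986 and 0.0286 with the block. Of the other 4 Dnmt3a probe sets, 1423064_at and 1423065_at fell by 0.61 and 0.66 with the block (adjusted p = 0.00245 and 0.00228), while 1423063_at and 1460324_at differed by -0.02 and 0.41 and did not pass. The maintenance gene Dnmt1 (1435122_x_at) differed by -0.011. Probe sets of 1 gene disagreed for others too. For Rif1, a Zscan4 repressor and replication timing factor, 1429490_at fell by 0.68 with the block (adjusted p = 0.0105), while its brightest probe set differed by -0.12. For Pcgf6, a Polycomb subunit, 1432108_at rose by 0.95 with the block (adjusted p = 0.00512), while its brightest differed by -0.21. For Lin28a 1421749_at rose by 1.34 with the block (adjusted p = 0.00390), while its brightest differed by -0.06. Atrx, a chromatin remodeller of heterochromatin, fell by 0.28 on the log2 scale at its brightest probe set (1433537_at, adjusted p = 0.0388 with the block), and its other 6 tested probe sets did not pass.

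Genes known to promote the state gave no call. Of 21 tested probe sets 0 passed limma's threshold in either direction, with the block (7.88% of all tested probe sets did) or without it (0.648% did). The median of the 21 was 0.01. The brightest were Dppa2 and Dppa4, DNA-binding partners that switch on Dux, which differed by -0.18 (95% interval -0.55 to 0.20) and -0.05 (-0.20 to 0.11). Other Prame family genes likewise gave 0 of 4 tested probe sets in both fits, with Pramel12 at -0.11 at its brightest probe set (-0.48 to 0.27) and Pramel1 at 0.51.

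Genes that work beside Arg2 or Calcoco2 were counted as a further list. Of 36 tested probe sets 0 passed limma's threshold without the block, against 0.648% of all tested probe sets. With the block 2 rose and 5 fell, beside 3.49% and 4.39% of all tested probe sets. The brightest gene, Odc1, which turns the ornithine made by arginase into putrescine, differed by -0.02 (95% interval -0.17 to 0.13). Gabarapl2, an Atg8 family protein to which autophagy receptors bind, fell by 0.40 on the log2 scale with the block (adjusted p = 0.00421, and 0.122 without it) and lies on chromosome 8. The others past the threshold with the block are named after their values were seen. Both rises were probe sets of Gabarapl1, another Atg8 family gene, at 0.49 and 0.50 (adjusted p = 0.0251 and 0.0191 with the block). The other 4 falls were of the Atg8 family genes Gabarap (-0.39) and Map1lc3b (-0.33 at 1 of its 3 tested probe sets), the mitochondrial ornithine carrier gene Slc25a15 (-0.49) and the arginine transporter gene Slc7a1 (-0.31). Of these, Map1lc3b and Slc25a15 also lie on chromosome 8.

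**Figure D4:**
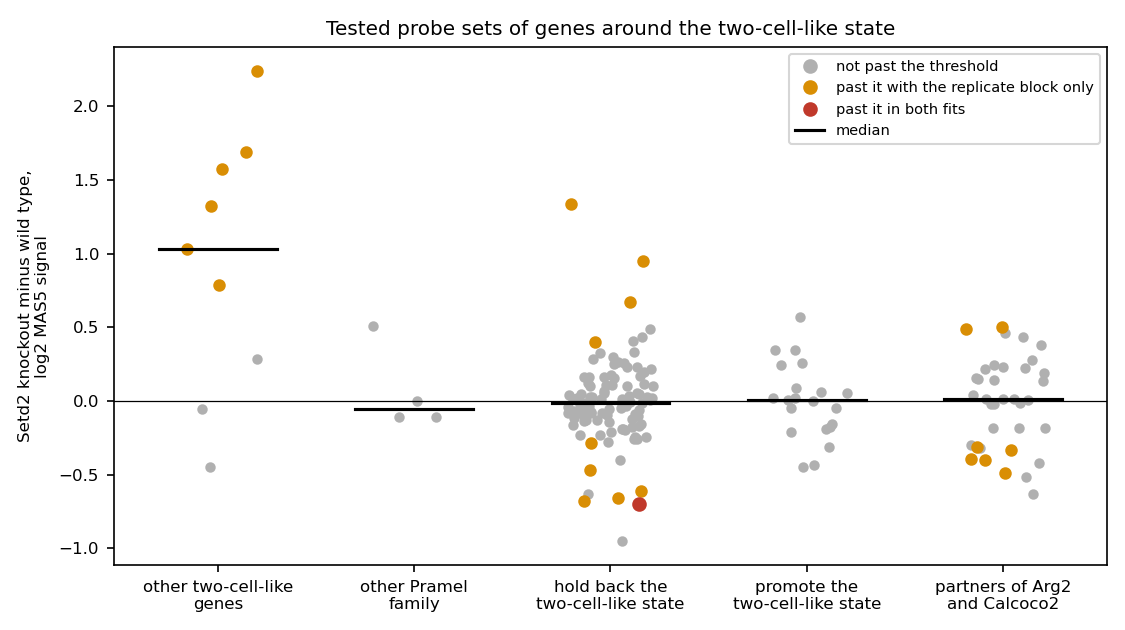
Setd2 knockout minus wild type difference in log2 MAS5 signal (vertical axis) of every tested probe set in the 5 further lists, with a bar at each median and colours for probe sets past limma's threshold in both fits (red) or with the replicate block only (orange). The median of the other two-cell-like genes is 1.03, and those of the other 4 lists lie between -0.05 and 0.01.

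Markers of the cells in culture were read beside these results, each list as the mean over 1 tested probe set per gene. Over all tested probe sets 0.648% passed limma's threshold without the block, and 3.49% rose and 4.39% fell with it. Pluripotency markers averaged 12.40 to 12.68 on knockout arrays and 12.53 to 12.83 on wild type arrays, and 0 of their 14 tested probe sets passed limma's threshold without the block (1 fell with it; 1 Tfcp2l1 probe set was at 0 on some array). Feeder fibroblast markers averaged 8.38, 9.42 and 9.35 on knockout arrays 1, 2 and 3, against 8.58, 9.13 and 9.56 on wild type arrays 1, 2 and 3, with 0 of 25 probe sets past the threshold (1 rose and 2 fell with the block) and 1 Prrx1 probe set at 0 on some array. Zscan4 was also lowest on the array numbered 1 in each genotype, and the part of the feeder share in its levels was not tested. Primitive endoderm markers averaged 6.07 to 6.53 on knockout and 7.24 to 7.57 on wild type arrays. Of their 12 tested probe sets 1 fell (Gata6; 0.374% of all tested probe sets did), and 6 fell with the block (4.39% did), with 1 Hnf4a probe set at 0 on some array. Trophectoderm markers averaged 7.52 to 7.998 on knockout and 7.33 to 7.74 on wild type arrays, and germ cell markers 8.91 to 9.54 and 8.84 to 9.55. None of these 2 lists' 20 tested probe sets passed without the block, while with it 3 of 13 trophectoderm probe sets rose, and 3 of 7 germ cell probe sets rose and 2 fell, beside 3.49% and 4.39% of all tested probe sets. The part of these cell types in the differences was not tested.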

How the data were processed

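The deposited table holds 1 log2 value per probe set and array. Per the submitters' processing notes the values came from MAS5, with no version given in the sources used here. After raising 2 to each value, the mean with 2% trimmed off each end was 497 on every array, as after scaling to a common target. The log2 values were used as deposited, with no pseudocount or further normalization. Detection calls were not used here, so no bound against background was derived. For arrays, their number limits the precision.

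The platform annotation gave the gene names, and symbols were updated through gene identifiers to RefSeq (GRCm38.p6): 34945 named 1 gene, 932 several and 9160 were unnamed here. Probe sets with a mean below the 40th percentile were left out of the main fit. Differences are knockout minus wild type from limma 3.58.1 in R 4.3.3 (lmFit, eBayes with an intensity trend, two-sided, Benjamini-Hochberg over all tested probe sets, threshold 0.05). Only the fit without the block was tested on simulated data, which had independent noise and no replicate structure.

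The members and gene lists were chosen with earlier results of these data known. The naming rule took every member, Setd2, list members past the threshold without the block or else the 2 brightest, and the 5 genes whose values follow Zscan4 most closely. Replicate numbers 1 to 3 occur in both genotypes. Deviations from the genotype means correlated over tested probe sets at r = 0.50, 0.23 and 0.24 between arrays of the same number (-0.37 to 0.23 otherwise), above the 0.1 set for pairing, so results of the blocked fit stand beside the others. Knockout 3 and wild type 2 correlated as strongly (0.23) as the pair numbered 2.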

Additional observations from a re-analysis of the deposited data

How the results depend on the processing

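Of 159 values of the 12 probe sets under other settings, 154 kept their direction. Many of them could not reverse. The filter, the intensity trend, the replicate block and leaving out chromosomes 8 and Y leave a difference unchanged by construction. The 5 that reversed were between -0.14 and -0.010: Arg2 (1438841_s_at) at -0.015 without wild type replicate 2 (-0.015 to 1.79 over single arrays left out), and Pramel7 (1439810_s_at) at -0.047 under quantile normalization, -0.14 without knockout replicate 1, -0.08 without wild type replicate 3 and -0.010 without both arrays numbered 1 (-0.14 to 0.27 over single arrays left out). Leaving out both arrays numbered 1, or the genes of chromosomes 8 and Y, was chosen after the data were seen. Among other two-cell-like genes Pramel13 turned to -0.057 without knockout replicate 1 (-0.057 to 0.70), and Pramel18 to 0.25 and 0.18 without knockout replicate 1 and wild type replicate 2 (-0.58 to 0.25). Zscan4 ranged from 0.84 to 1.91 over all settings (limma adjusted p = 0.00191 to 0.585), Tcstv1 from 1.02 to 4.29 (0.0437 to 0.660 in the fit over all probe sets) and Calcoco2 from -1.32 to -0.55 (0.000546 to 0.748).

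Counts past the threshold moved with the replicate block and with single arrays. Over all probe sets the count was 175, 2129 with the replicate block, 57 without the intensity trend, 2025 without both arrays numbered 1, and 33 to 437 with single arrays left out. For the members it was 0, 2 with the replicate block, 3 without both arrays numbered 1 and 0 to 1 with single arrays left out. Those 3 were Zscan4, Calcoco2 and Tcstv1. Tcstv1 then passed the filter through its knockout values (6.53 and 6.73, against 3.83 and 4.90 in wild type cells). Its call there is therefore not independent of the filter. In the fit over all probe sets Tcstv1 missed limma's threshold (adjusted p = 0.0715). For the other two-cell-like genes the count was 0, 6 with the replicate block, 4 without both arrays numbered 1 and 0 to 1 with single arrays left out. For the 5 further lists together it was 1, 23 with the replicate block, 0 without the intensity trend, 24 without both arrays numbered 1 and 0 to 5 with single arrays left out. The cause of these shifts was not tested. The filter, quantile normalization, median centring, the pseudocount and leaving out chromosomes 8 and Y changed no call of a member. A filter at the 60th percentile (6.96) left Zscan4 and Calcoco2 as the members with a value. With 3 arrays per genotype and 7 dim probe sets of 12, differences well over 1 on the log2 scale could miss the threshold.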
